A study of Mus musculus with 6 samples.

Results

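The transcription factors Prrx1, Twist1, Twist2, Snai1, Snai2, Zeb1, Zeb2, Runx1, Runx2 and Sox9 specify or maintain mesenchymal and skeletal cells. They were taken by name, 10 of the 21033 gene symbols in the count table, and all 10 were found there. All 10 passed the filter on low counts, as did 10124 symbols in all. RNA was measured in primary synovial fibroblasts from the ankle joints of hTNFtg mice, animals with a human TNF transgene that develop arthritis. The treated cells received 10 µM compound 33, a molecule known here only by its code name, for 48 h, and the controls received DMSO, the vehicle, for the same time. Cells of both groups carried the transgene and had been cultured for 3 passages, and each group had 3 libraries. The labels do not say how many mice gave the cells or whether the replicates were separate cultures, and p-values therefore cover the library-to-library spread alone, part of which may be technical.

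Synovial fibroblasts arise from limb mesenchyme, and these factors are part of that history. Prrx1 and the Twist proteins mark limb mesenchyme, the Snail and Zeb zinc finger proteins repress epithelial genes such as the one for E-cadherin, and in the skeleton Runx2 drives osteoblast formation and Sox9 cartilage formation. In inflamed joints the fibroblast is the cell that invades cartilage, and factors of this class are studied there because they also govern migration and matrix production. The comparison of compound 33 with DMSO asks, for these genes, whether RNA levels of mesenchymal regulators differed between treated and control cells.

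Short stretches around the RefSeq starts of Snai1, Runx1 and Runx2 (build GRCm38.p6, the assembly of mm10) are shown because they carry the letters that members of these same families read. The Snai1 stretch, on the plus strand at chr2:167538059-167538086, holds an E-box, the element that Snail and Zeb proteins bind, beginning 126 bases before the start. The Runx1 stretch, on the minus strand at chr16:92826029-92826056, and the Runx2 stretch, on the minus strand at chr17:44814586-44814613, each hold 2 adjoining RUNX elements just after the start of the transcript. Capitals mark the elements, all read on the gene's own strand, 5′ to 3′.
Snai1: agcccaggcgCACCTGctccggtctcag
Runx1: ctcataaacaACCACAgaACCACAagtt
Runx2: tcacaaacaACCACAgaACCACAagtgc
The elements begin 28 and 36 bases after this Runx1 start and 23 and 31 bases after the Runx2 start. The genes share an identical run of 22 bases across them. Runx1 had another RefSeq start, whose window at chr16:92697280-92697579 held no RUNX element.

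RefSeq gave a promoter window for 7 of the 10 genes, all except Snai2, Zeb1 and Sox9, and some genes had several windows. The E-box CAGGTG or its complement CACCTG stood in a window of 2 of these 7 genes, Snai1 and Runx1, and in 20.2% of all 32851 windows. The RUNX letters TGTGGT or ACCACA stood in 2 of 7, Runx1 and Runx2, and in 16.8% of all windows. The SOX letters ACAAAG or CTTTGT stood in 2 of 7, Snai1 and Zeb2, against 18.7% of all windows, the homeodomain letters TAATTA in Prrx1 alone against 5.3%, and the E-box CATATG in none against 3.9%. Both strands were searched and no matches shared a base. A gene was counted if any of its windows held a match. The shares of all windows count each window, so the figures are not like for like. These matches describe the letters of the windows and not binding, and counts from the 3′ end of transcripts do not tell which start was used.

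The libraries held between 1594052 and 2384850 reads with compound 33 and between 1913730 and 2897207 reads with DMSO. Levels are counts per 1000000 reads of the scaled library (CPM). The library kit reads transcripts near their 3′ end, so levels were not divided by length. The 10 genes together had 927, 842 and 740 CPM in the compound 33 libraries, against 869, 956 and 923 CPM in the DMSO libraries. The 13 fibroblast markers were all measured, among them Pdgfra, Thy1, Pdpn, Col1a1, Vim and Pdgfrb. They summed to between 12872 and 14825 CPM with compound 33 and between 15336 and 16385 CPM with DMSO, so the sums did not overlap. Abundant genes weigh most in these sums, and some were uneven within a group. Pdpn had 5852, 2535 and 2913 CPM in DMSO replicates 1, 2 and 3, and Col3a1 694, 2596 and 2467 CPM. The markers were split, with 9 negative estimates and 4 positive ones, those of Vim and Pdgfrb among the positive. In bulk samples such as these, fewer cells of a type and less RNA per cell cannot be told apart. In DMSO replicate 1, Sox9 and Runx2 lay far under both other DMSO libraries, and fold changes of these genes are given with and without it.

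None of the 10 genes passed edgeR's quasi-likelihood test at an adjusted p under 0.05, a threshold that 0.0296% of the tested genes passed. DESeq2 and limma-voom also passed 0 of them. Before adjustment 1 of the 10, Snai1, lay under 0.05 in edgeR, where 6.87% of all tested genes did, 3.64% on the higher and 3.23% on the lower side. The estimates of 9 of the 10 genes were negative, with a median log2 fold change (compound 33 over DMSO) of -0.27, and 51.1% of all tested genes had a negative one with a median of -0.01. Groups did not overlap for 2 of the 10, Snai1 and Snai2, both lower with compound 33, where 6.73% of tested genes had such lower groups, 6.64% such higher ones and 13.4% either. None of the 10 has an adjusted p under 0.05 in the authors' deposited table, where 0.179% of the genes with an adjusted p do. Snai1 alone has an unadjusted p under 0.05 in the authors' deposited table, where 4.2% of the genes do.

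**Figure D1:**
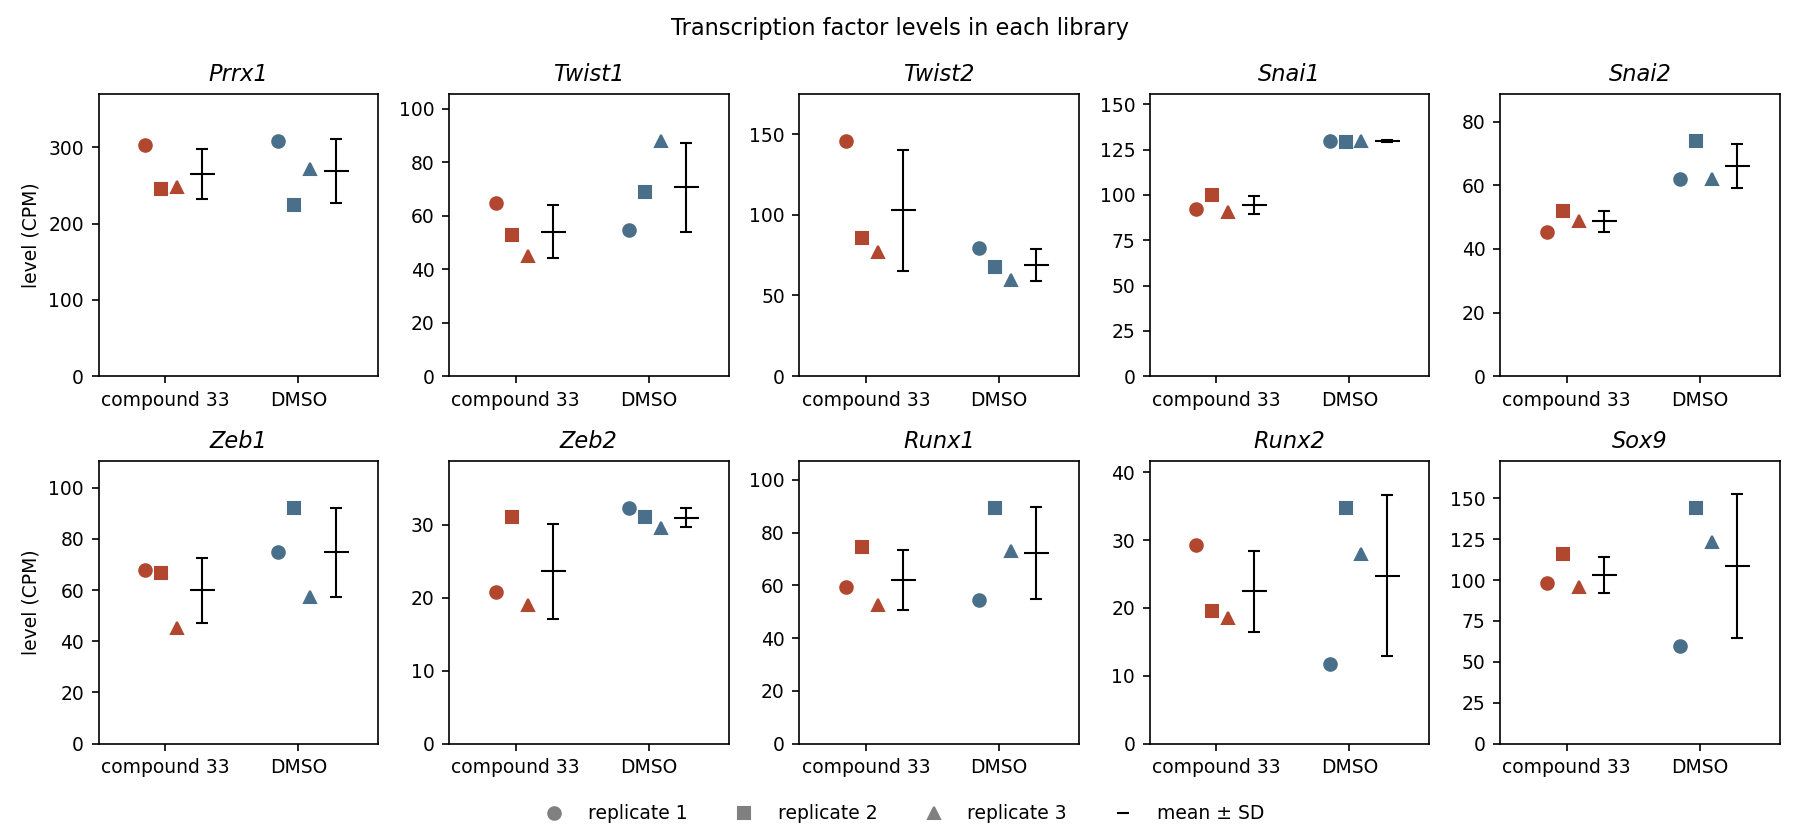
Level of each transcription factor in CPM (vertical axes from 0) in the 3 compound 33 and 3 DMSO libraries, with a symbol per replicate number and the mean ± SD beside the points. The Snai1 and Snai2 groups do not overlap, compound 33 replicate 1 stands at 146 CPM of Twist2, and DMSO replicate 1 stands at 59.4 CPM of Sox9 and 11.7 CPM of Runx2.

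The Snail genes were the pair whose groups did not overlap. Snai1, a zinc finger repressor of E-cadherin, spans 167538195 to 167542814 of chromosome 2 (mm10, plus strand). It had 92.3, 99.9 and 90.6 CPM in the compound 33 libraries, against 130, 129 and 130 CPM in the DMSO libraries. Every compound 33 library lay under every DMSO library, and the DMSO values were closer together (SD 0.766 CPM) than the 7.56 CPM that counting alone gives on average. The log2 fold change was -0.46 (SE 0.20, 95% interval -0.88 to -0.04), a ratio of 1.38 between the groups, with an adjusted p of 0.714 in edgeR and an unadjusted p of 0.0347. Across the alternatives the unadjusted p ran up to 0.0905, without compound 33 replicate 1, and the estimate stayed between -0.50 and -0.43.

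Snai2, or Slug, the related repressor that is known from neural crest and from fibroblasts, spans 14705852 to 14709385 of chromosome 16 (plus strand). It had 45.2, 51.8 and 48.9 CPM with compound 33, against 62.0, 74.0 and 62.0 CPM with DMSO. These groups did not overlap either, and the mean was 48.7 ± 3.30 CPM with compound 33 and 66.0 ± 6.91 CPM with DMSO (SD, n = 3 each). The log2 fold change of Snai2 was -0.44 (SE 0.21, 95% interval -0.90 to 0.02, edgeR adjusted p = 0.733). The ratio of Snai2 to Snai1 reads within a library was 0.490, 0.519 and 0.540 with compound 33, against 0.476, 0.573 and 0.476 with DMSO. The compound 33 ratios lay inside the DMSO range, with a log2 difference of 0.03 and an exact permutation p of 0.8. Of the 13 fibroblast markers 9 had a negative and 4 a positive estimate. Thy1 had 486 ± 52.0 CPM with compound 33 and 765 ± 166 CPM with DMSO. Lum had 169 ± 42.5 and 271 ± 50.8 CPM in the same order, and Pdgfrb 274 ± 26.3 and 178 ± 47.7 CPM. Groups did not overlap for Thy1 and Lum, lower with compound 33, and for Pdgfrb, higher with it. Of all tested genes 13.4% did not overlap. In edgeR 3 lower markers and 1 higher marker lay under an unadjusted 0.05, where 6.87% of all tested genes did. None of the 13 passed, and the part of the marker sum in the Snail values was not tested.

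The Twist genes had estimates of opposite sign. Twist1, a basic helix-loop-helix factor of limb and cranial mesenchyme on chromosome 12 (33957671 to 33959829, plus strand), had 64.8, 52.7 and 44.8 CPM with compound 33, against 54.6, 69.0 and 88.1 CPM with DMSO. Twist2, its close relative known from dermal and limb mesenchyme, spans 91801461 to 91848028 of chromosome 1 (plus strand). Twist2 had 146, 85.4 and 76.7 CPM with compound 33, against 79.5, 67.7 and 59.9 CPM with DMSO. Both pairs of groups overlapped, that of Twist2 only through compound 33 replicate 3 and DMSO replicate 1. The log2 fold change was -0.39 for Twist1 (SE 0.25, 95% interval -0.92 to 0.14, edgeR adjusted p = 0.823) and 0.57 for Twist2 (SE 0.27, 95% interval 0 to 1.15, edgeR adjusted p = 0.720). The Twist1 estimate was -0.20 with DMSO replicate 3 left out and -0.54 with DMSO replicate 1 left out, where its unadjusted p was 0.0391.

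A ratio within a library does not depend on how libraries are scaled. Reads of Twist2 over reads of Twist1 came to 2.25, 1.62 and 1.71 in the compound 33 libraries, against 1.46, 0.980 and 0.680 in the DMSO libraries. The lowest compound 33 ratio lay above the highest DMSO ratio, and the mean was 1.86 ± 0.342 with compound 33 and 1.04 ± 0.392 with DMSO (SD, n = 3 each). The log2 difference was 0.90, with an exact two-sided permutation p of 0.1, the smallest that 3 against 3 libraries allow, and 0.4 after adjustment over the 4 related pairs compared. It stayed between 0.63, without DMSO replicate 3, and 1.17, without DMSO replicate 1. The estimate for Twist2 itself was 0.23 without compound 33 replicate 1, the library with 146 CPM. Exons of Twist2 overlap the antisense gene Gm29100, and whether reads were counted by strand is not stated in the material at hand.

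**Figure D2:**
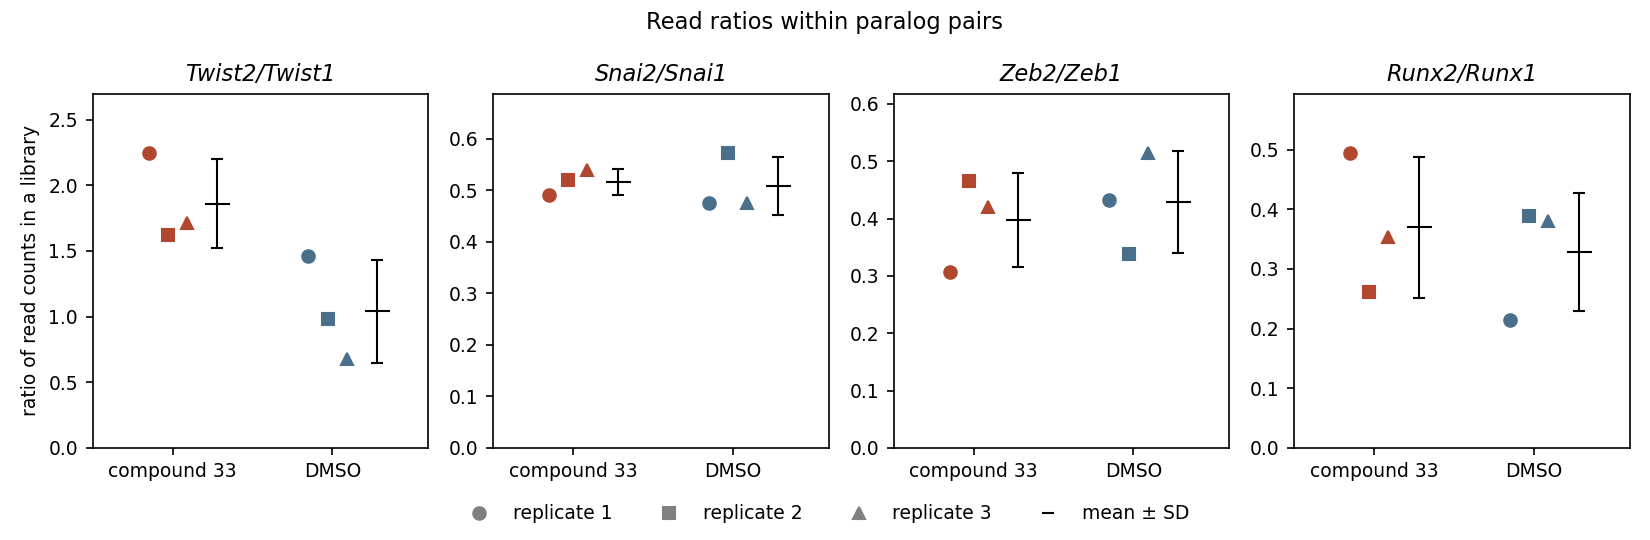
Ratio of the read counts of the genes of each related pair within a library (vertical axes from 0), for 3 compound 33 and 3 DMSO libraries, with the mean ± SD beside the points. The Twist2 to Twist1 ratio is 1.62 or more in every compound 33 library and 1.46 or less in every DMSO library, and the groups of the other pairs overlap.

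Zeb1 and Zeb2, large zinc finger and homeodomain repressors that share targets with the Snail proteins, had lower means with compound 33 and overlapping groups. Zeb1 had 67.9, 66.7 and 45.3 CPM with compound 33, against 74.8, 92.0 and 57.4 CPM with DMSO. Zeb2, which spans 44983632 to 45117395 of chromosome 2 (minus strand), had 20.8, 31.1 and 19.0 CPM with compound 33, against 32.3, 31.1 and 29.6 CPM with DMSO. Compound 33 replicate 2 sat within the DMSO values of Zeb2 while both other treated libraries lay under them. The log2 fold change was -0.31 for Zeb1 (SE 0.25, 95% interval -0.85 to 0.22, edgeR adjusted p = 0.888) and -0.38 for Zeb2 (SE 0.26, 95% interval -0.94 to 0.19, edgeR adjusted p = 0.857). With a library left out the Zeb2 estimate ran from -0.63 (compound 33 replicate 2) to -0.23 (compound 33 replicate 3), and the Zeb1 estimate from -0.48 (DMSO replicate 3) to -0.13 (DMSO replicate 2), with -0.14 for compound 33 replicate 3. The Zeb2 to Zeb1 read ratio averaged 0.398 ± 0.0822 with compound 33 and 0.429 ± 0.0885 with DMSO (SD, n = 3 each), with an exact permutation p of 0.6. Exons of both genes overlap genes on the opposite strand, Zeb2os among them for Zeb2.

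Epithelial genes that Snail and Zeb proteins repress were at or near 0 reads in both groups. Of 19 such genes, 10 had no read in any library, among them the keratins Krt8 and Krt18, the splicing factor Esrp1 and the epithelial transcription factor Grhl2. A count of 0 allows a level of up to 1.83 CPM in the shallowest library and 1.04 CPM in the deepest, by counting error only. Cdh1, the E-cadherin gene, had 0, 1 and 3 reads with compound 33 and 0, 0 and 1 reads with DMSO, and Epcam had 1 read in all. Only Jup, a junction protein also made in mesenchymal cells (103 ± 26.5 CPM with compound 33 and 99.3 ± 19.8 CPM with DMSO), and Krt19 (4.39 ± 1.56 and 7.42 ± 5.24 CPM in the same order) were tested, and neither passed.

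Prrx1, a homeodomain factor of limb mesenchyme and a regulator of fibroblast state, had the most reads of the set. It spans 163245119 to 163313710 of chromosome 1 (minus strand) and stood above 96.7% of all symbols in mean level. Prrx1 had 303, 245 and 248 CPM in the compound 33 libraries, against 309, 225 and 272 CPM in the DMSO libraries. The groups lay on top of each other, with a log2 fold change of -0.02 (SE 0.21, edgeR adjusted p = 0.990) whose 95% interval ran from -0.47 to 0.43. The sign of this estimate turned in 3 of the 15 alternatives. Of 6664 tested genes with at least 20 CPM on average, those most like Prrx1 over the 6 libraries were Tbc1d1 (Pearson's r 0.979 of log2 CPM), Ivd (0.976) and Zcchc10 (0.964), a description over few libraries. Its relative Prrx2 had 182 ± 48.8 CPM with compound 33 and 145 ± 77.8 CPM with DMSO (log2 fold change 0.33, SE 0.37).

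Runx1 and Runx2 share the Runt DNA-binding domain and the partner Cbfb. Runx1, best known as a regulator of blood stem cells and also active in mesenchyme, spans 92601466 to 92826149 of chromosome 16 (minus strand). It had 59.3, 74.6 and 52.5 CPM with compound 33, against 54.6, 89.3 and 73.1 CPM with DMSO. Runx2, the master regulator of osteoblasts, spans 44495987 to 44814797 of chromosome 17 (minus strand) and had 29.3, 19.5 and 18.5 CPM with compound 33, against 11.7, 34.7 and 27.9 CPM with DMSO. The compound 33 values of both genes lay inside or just beside the wide DMSO range, whose lowest library was DMSO replicate 1 each time. The log2 fold change was -0.22 for Runx1 (SE 0.24, 95% interval -0.75 to 0.31, edgeR adjusted p = 0.924) and -0.17 for Runx2 (SE 0.36, 95% interval -0.94 to 0.61, edgeR adjusted p = 0.958). Without DMSO replicate 1 these estimates were -0.38 and -0.49, and without DMSO replicate 2 they were -0.03 and 0.15. The Runx1 estimate was also -0.10 with compound 33 replicate 3 left out and -0.37 with compound 33 replicate 2 left out. Runx2 had 310 reads over all libraries, the fewest of the 10, and its interval is the widest of the set. Cbfb had 88.1 ± 41.5 CPM with compound 33 and 120 ± 35.6 CPM with DMSO (log2 fold change -0.46, SE 0.35). Antisense genes overlap exons of Runx1 (Gm26626) and Runx2 (Runx2os1).

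Osteoblast genes that RUNX2 controls were split between abundant fibroblast products and genes at the floor. Of 17 listed genes 7 were tested and 0 passed, with a median log2 fold change of -0.05. That median was -0.19, -0.12 and -0.02 with DMSO replicates 1, 2 and 3 left out in turn. With compound 33 replicates 1, 2 and 3 left out it was -0.08, -0.05 and -0.16. In DESeq2, run without the filter on low counts, the median was 0.06 over 13 genes of the list, some of them near 0 reads. The collagen genes Col1a1 and Col1a2, the most abundant of them, had 2766 ± 349 and 2145 ± 213 CPM with compound 33 and 3151 ± 501 and 2217 ± 430 CPM with DMSO. The collagenase gene Mmp13 had 559 ± 56.2 CPM with compound 33 and 615 ± 32.4 CPM with DMSO, and Spp1, the osteopontin gene, 561 ± 162 and 539 ± 318 CPM in the same order. Defining osteoblast markers were at or near 0, since Sp7, Ibsp, Dmp1, Sost and Mepe had no read and all 8 markers together summed to at most 1.24 CPM with compound 33 and 1.39 CPM with DMSO.

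Sox9, a high mobility group factor that specifies chondrocytes, spans 112782224 to 112787760 of chromosome 11 (plus strand). It had 98.4, 116 and 95.7 CPM with compound 33, against 59.4, 144 and 123 CPM with DMSO. The compound 33 libraries sat close together between the low and the high DMSO values, and the mean was 103 ± 11 CPM with compound 33 and 109 ± 44.1 CPM with DMSO (SD, n = 3 each). The log2 fold change of Sox9 was -0.08 (SE 0.29, 95% interval -0.69 to 0.54, edgeR adjusted p = 0.976), and the estimate was -0.36 with DMSO replicate 1 left out and 0.18 with DMSO replicate 2 left out.

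Few cartilage genes under SOX9 had enough reads to be tested. Of 21 listed genes 4 were tested and 0 passed, and Acan, Matn1 and Cnmd had no read. The type II collagen gene Col2a1 had 2, 7 and 11 reads with compound 33 and 0, 9 and 12 reads with DMSO. Col11a1, a fibrillar collagen gene, had 67.2, 43.5 and 65.4 CPM with compound 33, against 115, 70.4 and 85.6 CPM with DMSO, and these groups did not overlap (log2 fold change -0.62, SE 0.26, edgeR adjusted p = 0.697). Prelp, a leucine-rich repeat protein of connective tissue, had 81.3, 77.9 and 48.4 CPM with compound 33, against 53.6, 43.3 and 38.6 CPM with DMSO (log2 fold change 0.62, SE 0.25, edgeR adjusted p = 0.697). These were the only 2 of the 4 tested genes under an unadjusted 0.05, where 6.87% of all tested genes lay. Their estimates had opposite signs. Groups did not overlap for 1 of the 4, Col11a1, against 13.4% of all tested genes. The partners of SOX9 in cartilage, Sox5 and Sox6, had at most 11 and 17 reads in any library.

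**Figure D3:**
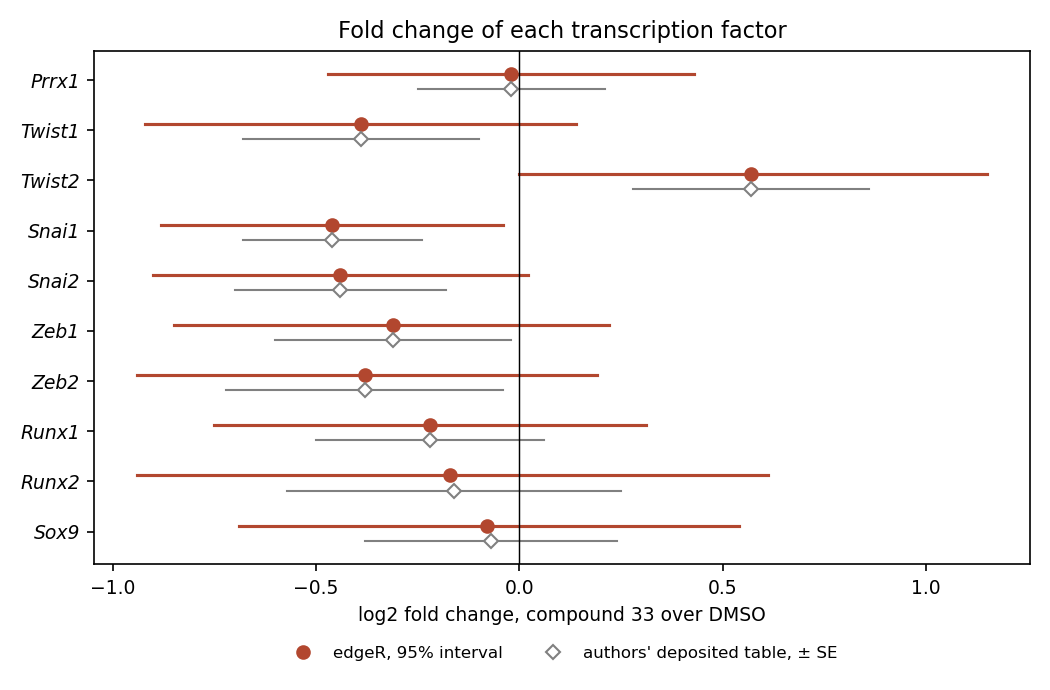
Log2 fold change of compound 33 over DMSO for each transcription factor. Filled circles are edgeR estimates with 95% intervals and open diamonds the values of the authors' deposited table ± SE. Twist2 alone lies above 0, at 0.57, and the interval of Snai1, from -0.88 to -0.04, is the one that lies wholly below 0.

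The authors' deposited table gives nearly the same fold changes from a DESeq2 fit. In the authors' deposited table Snai1 has a log2 fold change of -0.46 (SE 0.22) with a p of 0.0402 and an adjusted p of 0.843. Twist2 has 0.57 (SE 0.29) with a p of 0.0507 and an adjusted p of 0.900 in the authors' deposited table. For the other 8 genes the authors' deposited table holds log2 fold changes between -0.44, for Snai2, and -0.02, for Prrx1, each with an adjusted p of 0.999.

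**Figure D4:**
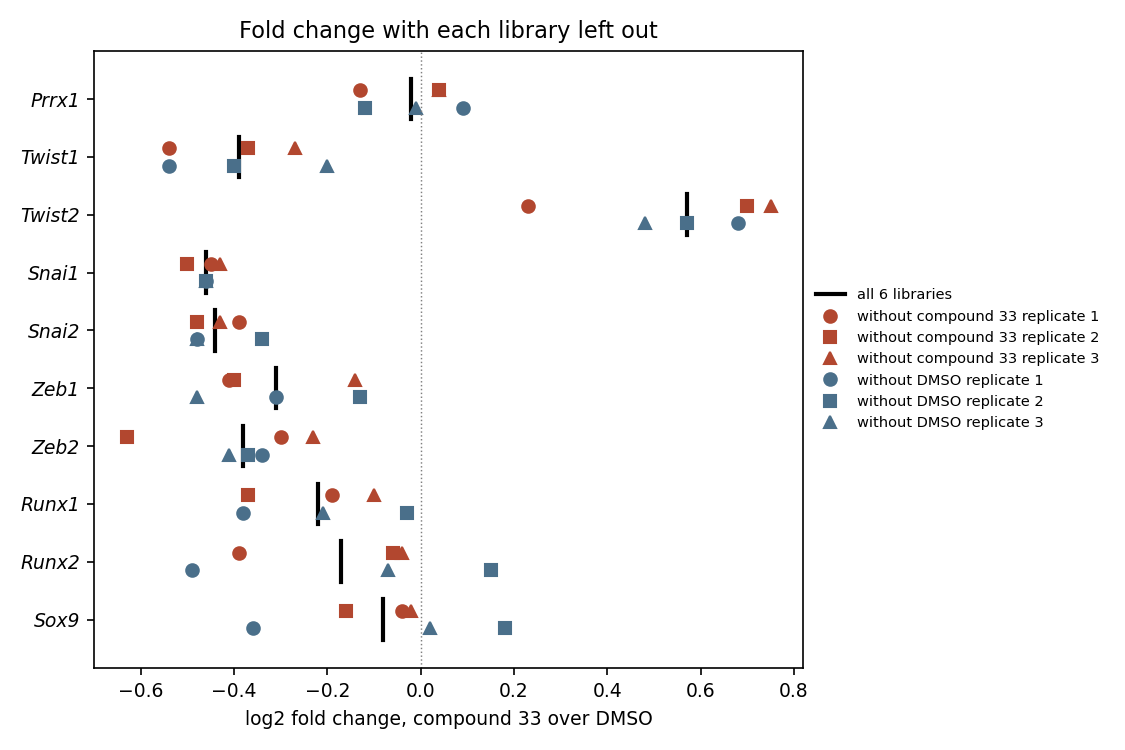
Log2 fold change of compound 33 over DMSO for each transcription factor from edgeR with all 6 libraries (black bars) and with each library left out (symbols). Snai1 stays between -0.50 and -0.43, while Runx2 spans -0.49 to 0.15 and Sox9 -0.36 to 0.18.

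In order of level, Prrx1 lay above all others in every library. With compound 33 it was followed by Twist2, Sox9 and Snai1, with means of 103 ± 37.8, 103 ± 11 and 94.3 ± 4.96 CPM. Values of Twist2 lay on both sides of the other pair, and Sox9 was above Snai1 in each of the 3 compound 33 libraries, by less than the SD of Sox9 in mean. Next came Runx1, Zeb1, Twist1 and Snai2, from 62.1 ± 11.3 to 48.7 ± 3.30 CPM, and last Zeb2 and Runx2 at 23.6 ± 6.51 and 22.5 ± 5.99 CPM. With DMSO, Snai1 (130 ± 0.766 CPM) and Sox9 (109 ± 44.1 CPM) followed it. Zeb1, Runx1, Twist1, Twist2 and Snai2 came next, between 74.7 ± 17.3 and 66.0 ± 6.91 CPM, without separation beyond their spread, and Zeb2 and Runx2 were last at 31.0 ± 1.38 and 24.8 ± 11.8 CPM.

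Factors that work with these proteins, and other regulators of limb mesenchyme, were set beside them. Of 19 partner genes 17 were tested and 0 passed, with a median log2 fold change of -0.03. That median was -0.09, 0.05 and 0.13 with DMSO replicates 1, 2 and 3 left out in turn. With compound 33 replicates 1, 2 and 3 left out it was -0.07, 0.01 and 0.08. Groups did not overlap for 2 of the 17, both lower with compound 33, against 13.4% of all tested genes. Tcf3, an E protein that pairs with Twist, had 13.4, 16.6 and 8.24 CPM with compound 33, against 20.7, 28 and 20.9 CPM with DMSO, and these groups did not overlap (log2 fold change -0.85, SE 0.32, edgeR adjusted p = 0.671). The corepressor gene Ctbp1 (183 ± 17.5 CPM with compound 33 and 194 ± 17.9 CPM with DMSO) and Id3, an inhibitor of E proteins (184 ± 54.8 and 177 ± 48.0 CPM in the same order), were the most abundant partners.

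Of 35 limb and joint patterning factors 24 were tested and 0 passed, and 20 of the 24 had a negative estimate with a median of -0.34. None lay under an unadjusted 0.05, and groups did not overlap for 1 of the 24, against 13.4% of all tested genes. Tbx15, a T-box factor of limb mesenchyme, was the most abundant and had 89.3, 141 and 113 CPM with compound 33, against 167, 141 and 166 CPM with DMSO. Before rounding the Tbx15 groups did not overlap, by a narrow margin (log2 fold change -0.46, SE 0.22, edgeR adjusted p = 0.729). Osr1, a zinc finger factor of joint progenitors, had 69.7, 69.2 and 67.9 CPM with compound 33, against 33.4, 96.5 and 43.2 CPM with DMSO, where the groups overlapped. The median of these patterning factors was -0.12 with DMSO replicate 1 left out and -0.21 with DMSO replicate 3 left out.

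Among 27 other mesenchymal lineage factors 15 were tested and 0 passed, with 11 negative estimates and a median of -0.09, which was 0.06 with DMSO replicate 1 left out and -0.21 with compound 33 replicate 3 left out. Cebpa, an adipogenic factor, had 18.3, 17.4 and 15.4 CPM with compound 33, against 6.89, 5.86 and 10.1 CPM with DMSO, and the groups did not overlap (log2 fold change 1.14, SE 0.34, edgeR adjusted p = 0.501). Wwtr1, which encodes the Hippo effector TAZ, had 87.4, 83.7 and 94.2 CPM with compound 33, against 123, 155 and 120 CPM with DMSO, again without overlap (log2 fold change -0.59, SE 0.21, edgeR adjusted p = 0.631). Its relative Yap1 had 272 ± 52.0 CPM with compound 33 and 319 ± 32.0 CPM with DMSO, and the inflammation-linked factor Cebpd 225 ± 37.9 and 210 ± 9.14 CPM in the same order. Groups did not overlap for 2 of the 15 on the higher side and 1 on the lower, against 13.4% of all tested genes. Pparg, the central adipogenic factor, and Myod1, the myogenic one, had at most 6 and 1 reads in a library and were not tested.

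Mesenchymal genes that rise when epithelial cells become mesenchymal were mostly abundant. All 20 were tested and 0 passed, 14 with a negative estimate and a median of -0.17. Groups did not overlap for 1 of the 20, lower with compound 33, against 13.4% of all tested genes. Postn, the periostin gene, had 452, 386 and 322 CPM with compound 33, against 477, 854 and 542 CPM with DMSO, without overlap (log2 fold change -0.69, SE 0.25, edgeR adjusted p = 0.649). The most abundant were Lox, for a collagen cross-linking enzyme (6030 ± 2528 CPM with compound 33 and 6798 ± 2762 CPM with DMSO), and Sparc, for a matrix glycoprotein (4067 ± 1420 and 3844 ± 325 CPM in the same order).

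**Figure D5:**
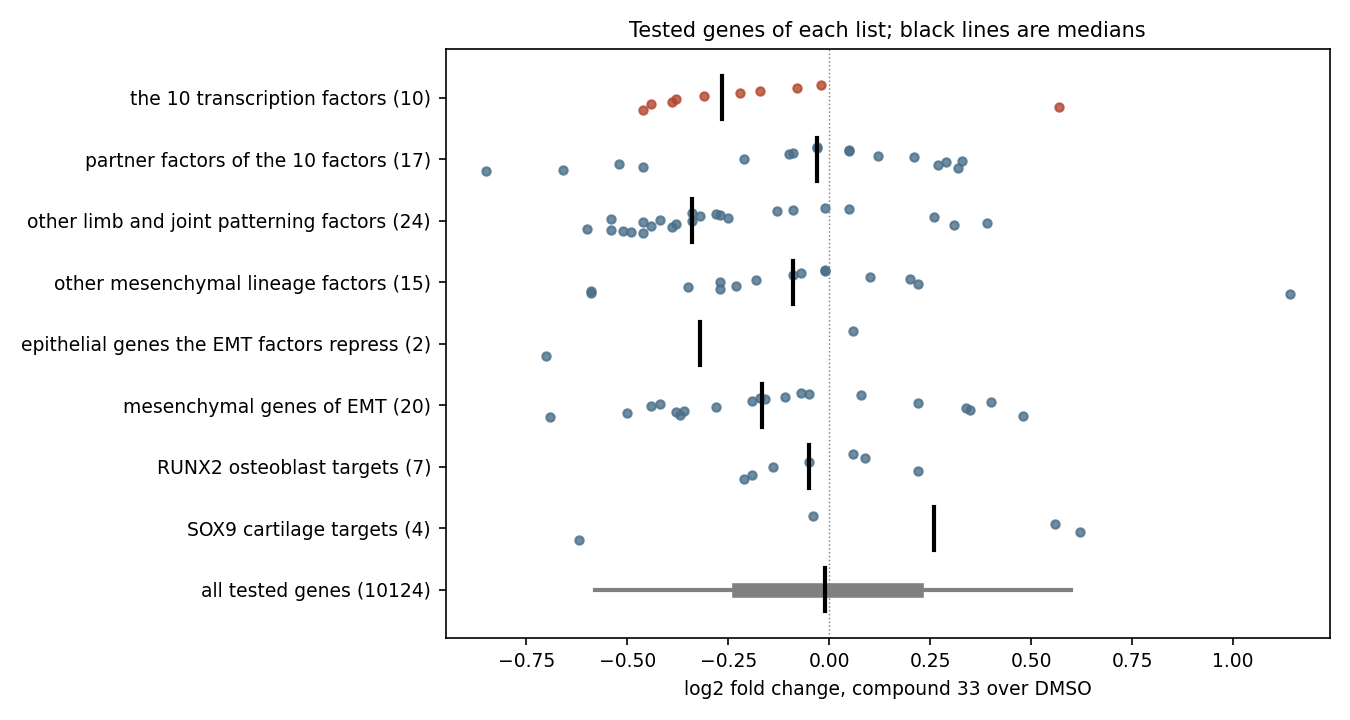
Log2 fold change of compound 33 over DMSO (horizontal axis) for each tested gene of the 10 transcription factors and of 7 related lists, with the number tested in brackets and medians as black lines. The grey bars mark the middle 50% and 90% of all 10124 tested genes, whose median is -0.01, against -0.27 for the 10 factors and -0.34 for the limb and joint patterning factors.

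Runx1 and Zeb2 are also made by leukocytes, so markers of other cells were read beside them. The 16 leukocyte markers summed to 92.3, 68.4 and 140 CPM with compound 33, against 79.0, 89.3 and 165 CPM with DMSO, highest in replicate 3 of each group. Of these markers 4 passed the filter, Lyz2, Cd14, Laptm5 and S100a8. Cd3e and Cd79a had no read and Ptprc at most 4 in a library. Fcer1g, which also failed the filter, had at most 15 reads in a library, Cd68 11, and Csf1r, C1qa and Tyrobp 10 each. Those highest counts were all in replicate 3 libraries. Endothelial markers summed to between 13.4 and 24.0 CPM with compound 33 and between 13.9 and 21.2 CPM with DMSO, with Pecam1, Tie1 and Sox17 at 0. Mural markers lay between 61.4 and 110 CPM with compound 33 and between 58.9 and 97.8 CPM with DMSO. Chondrocyte markers reached at most 13.4 CPM with compound 33 and 7.22 CPM with DMSO, epithelial and keratinocyte markers 15.9 and 17.0 CPM, and skeletal muscle markers 39.1 and 40.8 CPM, in the same order. Ranges of all these sums overlapped between groups, and their part in the values of Runx1 and Zeb2 was not tested.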

How the data were processed

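QuantSeq 3′ mRNA libraries of 6 samples were sequenced on an Ion Proton instrument, per the labels' protocols. HISAT2 2.2.1 and featureCounts 2.0.3, with FastQC 0.11.9 and DESeq2, are the tools and mm10 the build named in the submitters' processing notes. The gene annotation, the strand setting and the handling of multiply matching reads were not given in the sources used here. Raw counts per gene symbol were deposited by the authors. They also deposited a comparison table whose mean normalized count is a signal, whose fold changes are log2 values, whose Wald statistic is a score, and which ends with p-values.

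Tests used edgeR 4.0.16 in R 4.3.3 (filterByExpr, minimum count 10, TMM scaling, robust quasi-likelihood F test of all 6 libraries by group, two-sided, Benjamini-Hochberg adjustment over 10124 genes, threshold 0.05). Levels are CPM as mean ± SD. Alternatives were other scalings and filters, no robust estimation, DESeq2 1.42.0, limma-voom (limma 3.58.1), a replicate block and each library left out. Paralog ratios used an exact permutation test. Replicate pairs differed by more than counting noise (chi-square per degree of freedom 4.34 to 17.6) and were kept as separate samples. Coordinates come from GENCODE M21 on mm10, 1-based, and promoter letters from RefSeq.

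The 10 genes and all lists were chosen with earlier results of these data known. In the related lists, genes under an unadjusted 0.05 (up to 4) and the 2 most abundant tested genes were named by rule. Cbfb, Prrx2, Mmp13, Spp1, Thy1, Lum, genes at or near 0 reads and others given as examples were chosen after their values were seen.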

Additional observations from a re-analysis of the deposited data

How the results depend on the processing

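None of the 10 transcription factors passed under any of the 15 alternatives run, with the lowest adjusted p at 0.488, for Twist2 without DMSO replicate 1. Over all tested genes 3 passed, against 21 without a low-count filter, 18 in DESeq2, 7 with the replicate block and between 1 and 7 with a library left out, and the cause was not tested. The labels do not say whether the replicate numbers pair the samples, and expression values alone cannot settle it. Deviations of same-numbered libraries correlated at -0.016, 0.218 and 0.082 across genes, and those of other library pairs at -0.226 to 0.143. With the replicate block 0 of the 10 genes lay under an unadjusted 0.05. The estimate of Sox9 turned to 0.01 in limma-voom and 0 with the replicate block. With a library left out the estimate ran from -0.36 to 0.18 for Sox9, from -0.13 to 0.09 for Prrx1 and from -0.49 to 0.15 for Runx2. The other 7 genes kept their sign in all 15. Between 7 and 9 of the 10 estimates were negative, and the median ran from -0.37 to -0.12. Under an unadjusted 0.05 lay 3 of the 10 without DMSO replicate 1 (Twist1 0.0391, Twist2 0.0294 and Snai1 0.0417). With median-ratio scaling 2 did (Snai1 0.0356 and Twist2 0.0497), and 0 without DMSO replicate 2, DMSO replicate 3 or compound 33 replicate 1. In the main fit 6.87% of all tested genes lay there. That share was not computed for the alternatives, so a changed count may not be particular to these genes. Without a low-count filter Twist2 (unadjusted p = 0.0262) and not Snai1 (0.0553) lay under 0.05. Alternatives for medians, ratios and unadjusted counts were chosen after seeing the data. Runx2 had an SD of 5.99 CPM with compound 33 and 11.8 CPM with DMSO, where counting alone gives 3.39 and 3.19 CPM.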

Other observations

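Tnfsf11, which encodes the osteoclast factor RANKL and was listed among the osteoblast genes, had 1, 2 and 1 reads in the compound 33 libraries, against 3, 17 and 13 reads in the DMSO libraries. It did not pass the filter on low counts, was picked out after its values were seen and was not tested.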
